A study of Mus with 9 samples.

Results

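Kinesins are motor proteins that walk along microtubules, and the CENP proteins assemble on the centromere, the part of a chromosome that the spindle holds. The set described here is every gene whose symbol begins with Kif or Kifc and a number, or with Cenp and a letter, in the count table of a mouse heart RNA sequencing study. These were 68 of 55421 genes, and 62 of them had enough counts to be tested. The rule uses the names alone. They fell into 13 mitotic kinesins, 17 transport kinesins, 17 other Kif-named genes, 16 genes of CENP-A and the inner centromere network, 2 outer centromere genes (Cenpe and Cenpf) and 3 other Cenp-named genes.

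The study compared 3 groups of 3 bulk libraries, all from male wild-type C57BL/6J mice aged 8 to 10 weeks. Sham mice had the surgery without ligation and received vehicle. The titles of the Sham libraries carry CON and AF, and the treatment label places them in Sham. In MI mice the left anterior descending coronary artery was tied permanently, which causes myocardial infarction, and vehicle was given. MI_ART mice had the same ligation and received artesunate, an antimalarial artemisinin derivative, by intraperitoneal injection. The sources disagree on its schedule: 25 mg/kg each day for 7 days from surgery in one place, and 10 mg/kg on alternate days from 2 days before surgery to day 7 in another. They also call the animals rats once, and do not give the day of harvest. The tissue is labelled atria, left atrium in the design text. The MI libraries are numbered 2, 3 and 4, and no label ties a library to an animal of its own. The p-values therefore reflect only how these libraries vary, and part of that variation may be technical.

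Total counts per library ran from 68046341 to 83685313, so that 3 counts in a library corresponded to between 0.0322 and 0.0592 CPM. CPM is the usual depth-scaled read count, taken here after TMM, edgeR's trimmed mean scaling, and such floors cover counting error only. MI 4 stood apart: its chi-square per gene against MI 2 and MI 3 was 585 and 472, whereas the other pairs within a group ranged from 69.0 to 132. The summed CPM of 4 atrial muscle genes (Myl7, Myl4, Sln, Bmp10) was 8.91 in MI_ART 3 and 537 to 4485 in the others, so the atrial label was nearly without its markers in that library. Bmp10 was at 0 in 5 libraries. Genes of ventricular muscle (Myl2, Myl3, Irx4) summed to 7124 to 8034 CPM in Sham, 1368 to 2532 in MI and 2561 to 3914 in MI_ART. Some results that rest on MI 4 or MI_ART 3 are given with and without them, though not all.

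Mitotic kinesins build the spindle, move chromosomes and divide the cell: Kif11 pushes the spindle poles apart, Kif2c depolymerizes microtubules at kinetochores, Kif4 and Kif22 bind chromosome arms, and Kif20a and Kif23 act in the central spindle and in cytokinesis. Most of them are made in cells that are cycling and are low in resting tissue. Transport kinesins such as the Kif1, Kif3 and Kif5 families carry vesicles, mitochondria and other cargo in cells that do not divide, cardiac muscle and nerve cells among them. CENP-A is the histone that marks the centromere, and the network of CENP proteins built on it through the cell cycle connects it to the outer kinetochore. Adult heart muscle cells rarely divide, whereas fibroblasts, immune cells and endothelial cells can proliferate after an infarction.

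The 3 main lists behaved differently after infarction. All 13 mitotic kinesins rose in MI against Sham, with a median 21.9-fold. The 17 transport kinesins split, with 4 higher, 5 lower and 8 not passing the test, and 10 of the 16 inner centromere genes rose with none lower. A gene was called where its adjusted p (edgeR's quasi-likelihood test, Benjamini-Hochberg over all 19326 genes tested) was under 0.05. In the same fit 18.8% of all genes tested were called higher and 14.3% lower, 33.1% in either direction. Of the 62 members tested, 30 were called higher and 8 lower, and their median log2 fold change was 1.08 against 0.04 over all genes. At an unadjusted p under 0.05 there were 41 members, where the share over all genes was 43.9%. MI lay wholly above Sham in 34 members and wholly below in 9, against 25.7% and 23.2% of all genes. In bulk tissue, fewer or more cells of a type cannot be told apart from less or more RNA per cell.

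**Figure D1:**
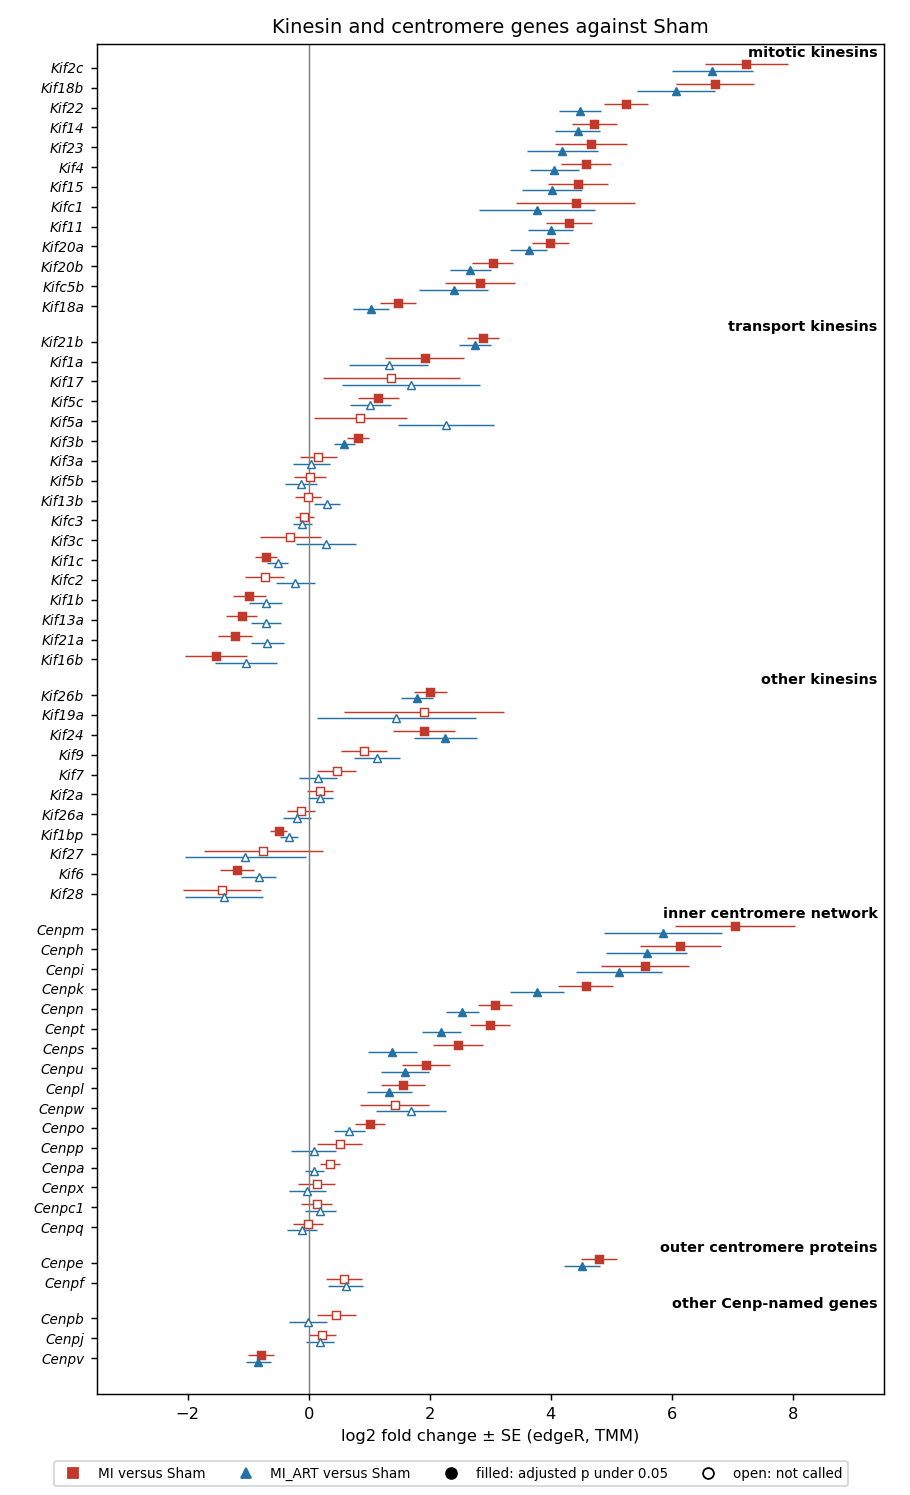
Log2 fold change of the 62 tested members against Sham (x axis, points with 1 standard error) for MI (squares) and MI_ART (triangles), by role, filled where the edgeR adjusted p was under 0.05. The 13 mitotic kinesins all lie to the right of 0 in both comparisons, from 1.47 to 7.23 in MI, whereas the transport kinesins spread from -1.53 to 2.88.

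Kif20a, a motor of the central spindle, was at 1.66, 1.68 and 2.30 CPM in Sham, at 23.7, 39.6 and 26.6 in MI 2, MI 3 and MI 4, and at 28.1, 16.1 and 26.0 in MI_ART 1 to 3. The infarcted libraries were all above Sham by a wide gap, and the MI and MI_ART values overlapped. The log2 fold change of Kif20a in MI was 3.99 ± 0.31 (SE), or 15.9-fold (edgeR adjusted p = 6.27e-05). Reads of Kif20a could also come from Brd8 or Cdc23, since the strand setting of the counting is not given and RefSeq places these genes over part of it.

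Kif11, the motor that separates the spindle poles (GRCm38.p6 chromosome 19, 37376382 to 37421863), followed the same order. Its values were 1.66, 0.948 and 0.766 CPM in Sham, 19.4, 29.8 and 17.3 in MI, and 21.3, 12.6 and 20.2 in MI_ART. Kif11 was 19.7-fold higher in MI (log2 4.30 ± 0.38 SE, edgeR adjusted p = 9.76e-05). The lowest infarcted library, MI_ART 2, was still above the highest Sham library.

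Kif22, which pushes chromosome arms away from the poles, was at 0.701, 0.750 and 0.460 CPM in Sham. It reached 15, 26.1 and 31.5 in MI, and 15.6, 11 and 16.2 in MI_ART. The MI mean was 37.9-fold the Sham mean (log2 5.25 ± 0.36 SE, edgeR adjusted p = 4.90e-05). Kif23, a component of the centralspindlin complex that bundles the midzone, was the most uneven of these genes in Sham, at 1.22, 0.138 and 0.689 CPM. In MI it stood at 15.9, 22.7 and 13.6 and in MI_ART at 14.7, 9.70 and 13.2, a 25.4-fold rise in MI (edgeR adjusted p = 0.000412). Kif4, a chromosome-bound motor encoded on the X chromosome, went from 0.737, 0.296 and 0.651 CPM in Sham to 10.0, 17.6 and 13.1 in MI and 11.6, 6.39 and 10.2 in MI_ART. For Kif4 the rise in MI was 24.0-fold (edgeR adjusted p = 0.000100).

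The largest folds belonged to genes that were close to undetected in Sham. Kif2c, the microtubule depolymerase of the kinetochore (chromosome 4, 117159633 to 117182624), had 14 counts over the 3 Sham libraries together, at 0, 0.197 and 0.0766 CPM. It was at 9.69, 15.1 and 16.4 CPM in MI and at 11.8, 6.79 and 9.44 in MI_ART. The fitted rise in MI was 150-fold (log2 7.23 ± 0.68 SE, edgeR adjusted p = 0.000117), and its size rests on those few Sham counts. Kif18b, which shortens astral microtubules, had 12 counts in Sham (0.0737, 0 and 0.153 CPM). It was at 6.24, 9.97 and 8.33 CPM in MI and at 6.44, 4.01 and 5.25 in MI_ART, with a fitted 105-fold rise in MI (edgeR adjusted p = 0.000120).

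The other mitotic kinesins were Kif14, Kif15, Kif18a, Kif20b, Kifc1 and Kifc5b, and their rises in MI ranged from 2.77-fold (Kif18a, which dampens chromosome movements) to 26.3-fold (Kif14, a cytokinesis motor). Kif18a had the smallest rise of the 13 and already stood at 1.59, 1.58 and 2.49 CPM in Sham. Kifc1 and Kifc5b are near-identical minus-end motor genes on chromosome 17, and reads may have been split between them in an unknown way. Without these 2 genes the remaining 11 were all called higher, with a median log2 fold change of 4.59. Each of the 13 calls in MI against Sham held in all 18 alternative fits.

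**Figure D2:**
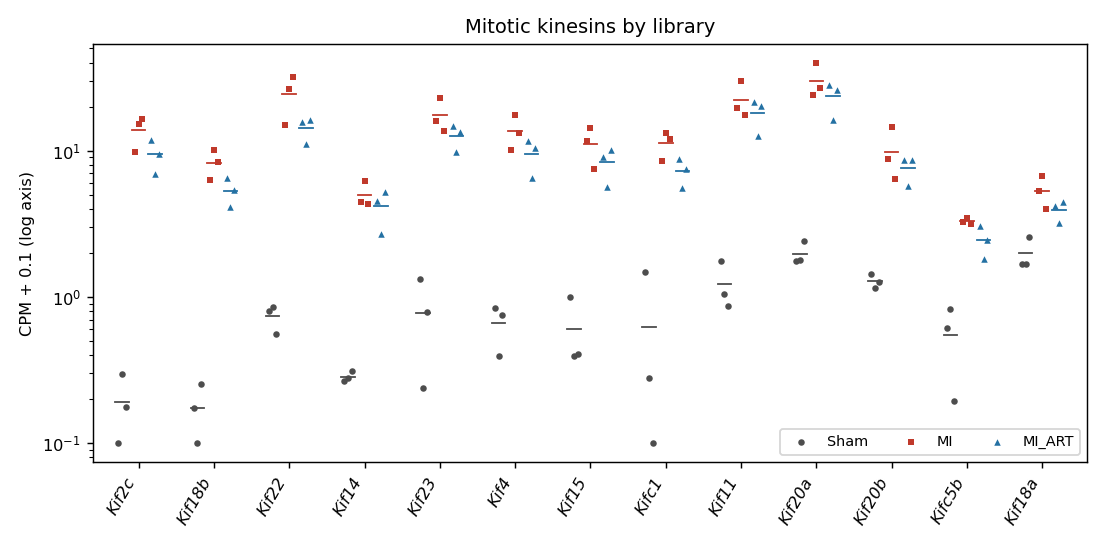
CPM + 0.1 (log axis) of the 13 mitotic kinesins in every library, with Sham as circles, MI as squares and MI_ART as triangles and a bar at each group mean. For each of the 13 genes every infarcted library lies above every Sham library, and the MI and MI_ART points lie close together.

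The infarcted libraries kept a common order across these genes. Among the 6 of them, MI 3 was the highest in 11 of 13 mitotic kinesins and MI 4 in 2, and MI_ART 2 was the lowest in 13 of 13. Markers of proliferating cells moved with them: Mki67 was 1.18 to 2.71 CPM in Sham, 55.6 to 90.1 in MI and 40.8 to 65.3 in MI_ART, with its maximum in MI 3 and its infarcted minimum in MI_ART 2. All 4 genes of that list (Mki67, Top2a, Pcna, Mcm2) rose in MI. The mean log2(CPM + 0.1) of the 13 mitotic kinesins minus that of the 4 proliferation markers was -2.87 ± 0.68 (SD, n = 3) in Sham, -2.48 ± 0.08 in MI and -2.57 ± 0.05 in MI_ART, so the gap differed little between the infarcted groups. Macrophage markers (5 genes) summed to 97.2 to 117 CPM in Sham, 589 to 890 in MI and 411 to 711 in MI_ART, and MI_ART 2 had the lowest infarcted value there too. Neutrophil markers (S100a8, S100a9, Csf3r, Retnlg), all 4 called higher in MI, summed to 1.32 to 1.34 CPM in Sham, 40.8 to 104 in MI and 15.9 to 73.5 in MI_ART, again with MI_ART 2 lowest of the infarcted libraries. Fibroblast markers (5 genes) summed to 1365 to 1535, 6142 to 7001 and 5542 to 6428 CPM. That list was not uniform, since in MI 3 of the 5 were called higher and 1 lower. Endothelial markers (4 genes) summed to 492 to 559 CPM in Sham, 444 to 589 in MI and 482 to 492 in MI_ART. Of these, 0 were called higher and 1 lower in MI, while 3 of the 4 pointed higher. Lymphocyte markers (4 genes) summed to 1.07 to 1.66, 1.55 to 5.58 and 1.19 to 2.55 CPM. In MI 1 of them was called higher, and 2 of the 4 pointed lower. The part of any of these cell types in the rise of the mitotic kinesins was not tested.

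Transport kinesins had no common direction. The 5 lower calls were Kif1b, Kif1c, Kif13a, Kif16b and Kif21a, the 4 higher calls were Kif1a, Kif3b, Kif5c and Kif21b, and the background shares were those given above. The median log2 fold change of the 17 genes was -0.02 in MI, and 0.17 without MI 4. Only 2 of the 9 calls, Kif21b and Kif3b, held in all 18 alternative fits.

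Kif1c, a motor that carries vesicles and integrins and moves membrane between the Golgi and the endoplasmic reticulum, was at 335, 366 and 253 CPM in Sham. It was at 200, 177 and 208 in MI and at 231, 232 and 205 in MI_ART, and every infarcted library was below every Sham library. Kif1c fell by 0.71 on the log2 scale in MI, 1.63-fold lower (SE 0.17, edgeR adjusted p = 0.0122). That call was lost without Sham 2 (edgeR adjusted p = 0.0525) and when MI_ART was left out of the fit (0.0503).

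Kif1b, whose isoforms carry mitochondria and synaptic vesicle precursors, was at 190, 175 and 205 CPM in Sham, at 123, 111 and 53.8 in MI, and at 118, 125 and 105 in MI_ART. Its value in MI 4 was the lowest of the 9 libraries, and the other infarcted libraries lay between 105 and 125. Kif1b was 1.98-fold lower in MI (edgeR adjusted p = 0.0197), a call lost without Sham 1 (0.0530), without Sham 3 (0.0660) and in the fit of these groups alone (0.0537).

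Kif13a, which moves endosomes and melanosome cargo, went from 98.1, 103 and 88.4 CPM in Sham to 54.8, 51.7 and 27.5 in MI and 52.3, 69.1 and 56.2 in MI_ART. It was 2.16-fold lower in MI (edgeR adjusted p = 0.00775). Kif21a, a slow motor that restrains microtubule growth, was at 28.5 to 34.0 CPM in Sham, 7.28 to 16.2 in MI and 17.4 to 21.0 in MI_ART, 2.32-fold lower in MI (edgeR adjusted p = 0.00865). Neither call depended on a single library.

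Kif16b, an endosome motor that binds membrane lipid, was the least steady of the lower calls. It was at 59.7, 39.5 and 59.1 CPM in Sham, at 33.3, 16.0 and 5.46 in MI, and at 32.9, 22 and 22.2 in MI_ART. No infarcted library reached the lowest Sham value, and MI itself spread from 5.46 to 33.3. The 2.89-fold lower value in MI had an edgeR adjusted p of 0.0449, which was kept in 2 of the 9 fits that left out 1 library: without MI 4 (0.0370) and without MI 2. In the other 7 it ran from 0.0578 to 0.117.

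These 5 lower calls were lost where no scaling beyond total counts was used. With other scalings (RLE or upper quartile factors) the transport kinesins had 4 higher and 5 lower calls, as with TMM. TMM gave Sham libraries factors of 0.624 to 0.744 and infarcted ones 1.14 to 1.28. With total counts in place of TMM, the median of all genes moved from 0.04 to 0.88 in MI against Sham, no member was called lower, and the value of Kif1c turned to 0.12 (edgeR adjusted p = 0.638). Kif1b, Kif13a, Kif16b and Kif21a kept their sign there, at -0.14, -0.28, -0.70 and -0.37. Over all members tested 10 turned sign, among them the transport kinesins Kifc2 (0.09), Kif3c (0.52), Kif13b (0.81) and Kifc3 (0.76), of which Kif13b and Kifc3 were then called higher (edgeR adjusted p = 0.0145 and 0.00628). All genes then split into 9528 higher and 644 lower, against 3631 and 2768 with TMM. Cardiomyocyte markers (Myh6, Tnnt2, Actc1, Ttn, Ryr2) summed to 43962 to 49875 CPM in Sham, 17811 to 26243 in MI and 20879 to 28981 in MI_ART, and 3 of the 5 were called lower in MI. Their part in the lower transport kinesins was not tested.

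Among the higher calls, Kif21b, a motor of neurons and immune cells that also restrains microtubule growth, was at 1.29, 1.28 and 1.23 CPM in Sham. It stood at 9.37, 8.74 and 9.85 in MI and at 9.99, 5.48 and 10.1 in MI_ART, with no overlap with Sham. Kif21b rose 7.35-fold in MI (log2 2.88 ± 0.27 SE, edgeR adjusted p = 0.000110), the largest rise of the 17. Kif3b, a subunit of the kinesin-2 motor of the primary cilium, rose 1.76-fold (edgeR adjusted p = 0.00667). Its values were 15.3, 14.3 and 18.3 CPM in Sham, 31.4, 30.4 and 22.7 in MI and 25.2, 22.4 and 24.5 in MI_ART. Kif3a, its partner in that motor, did not pass (log2 0.16 ± 0.30 SE, edgeR adjusted p = 0.723).

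Kif1a and Kif5c are motors best known from axons. Kif1a was at 0.866, 1.28 and 1.17 CPM in Sham, at 4.78, 3.70 and 4.04 in MI, and at 5.11, 2.73 and 0.456 in MI_ART. MI lay wholly above Sham, whereas MI_ART 3 lay below every Sham library. The 3.77-fold rise in MI was at an edgeR adjusted p of 0.0480, which stayed under the threshold in 2 of the 9 fits without 1 library, those without MI_ART 1 and without MI_ART 3, and ran up to 0.136 (without Sham 1). Kif5c was at 2.21, 1.5 and 1.30 CPM in Sham, 3.26, 4.63 and 3.21 in MI, and 4.44, 3.49 and 2.24 in MI_ART. Its 2.21-fold rise in MI (edgeR adjusted p = 0.0267) was lost without Sham 2 (0.0831), Sham 3 (0.0921) or MI 3 (0.0865).

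The neuron markers (Tubb3, Snap25, Stmn2, Th, Prph) summed to 7.43 to 7.76 CPM in Sham, 19.5 to 64.7 in MI and 20.3 to 45.8 in MI_ART, and 1 of the 5, Tubb3, was called higher in MI. Th was at 0 in all Sham libraries and in MI_ART 1 and MI_ART 3. Kif5a, a kinesin-1 heavy chain of nerve cells, was at 16.9 CPM in MI_ART 1 and between 0.849 and 3.99 in the other libraries. In the same library Snap25, a synaptic protein gene, was at 16.4 CPM, and it did not exceed 3.30 elsewhere. Reads of Kif5a could also come from Dctn2, which overlaps it. The part of nerve tissue in these values was not tested.

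The transport kinesins that did not pass include the ubiquitous motors. Kif5b, the general kinesin-1 heavy chain, was at 155, 137 and 136 CPM in Sham, 172, 179 and 81.6 in MI, and 143, 127 and 123 in MI_ART. MI 2 and MI 3 lay above every Sham library and MI 4 below, and the log2 fold change was 0.02 ± 0.26 (SE, edgeR adjusted p = 0.971). Without MI 4 it was 0.30 (edgeR adjusted p = 0.0777). With total counts Kif5b was called higher (0.85, edgeR adjusted p = 0.0217), where the median of all genes was 0.88. Kifc3, a minus-end motor of cell junctions, was at 62.2, 67.2 and 52.7 CPM in Sham, 60.9, 50.8 and 61.4 in MI and 53.6, 60.8 and 54.3 in MI_ART, with a log2 fold change of -0.07 ± 0.16 (SE, edgeR adjusted p = 0.754). Kif3c was at 2.34 CPM in MI 4 and between 11.2 and 15.9 in the other 8 libraries, and its log2 fold change went from -0.31 to 0.16 without MI 4. Kif13b, Kif17 and Kifc2 also did not pass, with log2 values from -0.73 to 1.36.

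**Figure D3:**
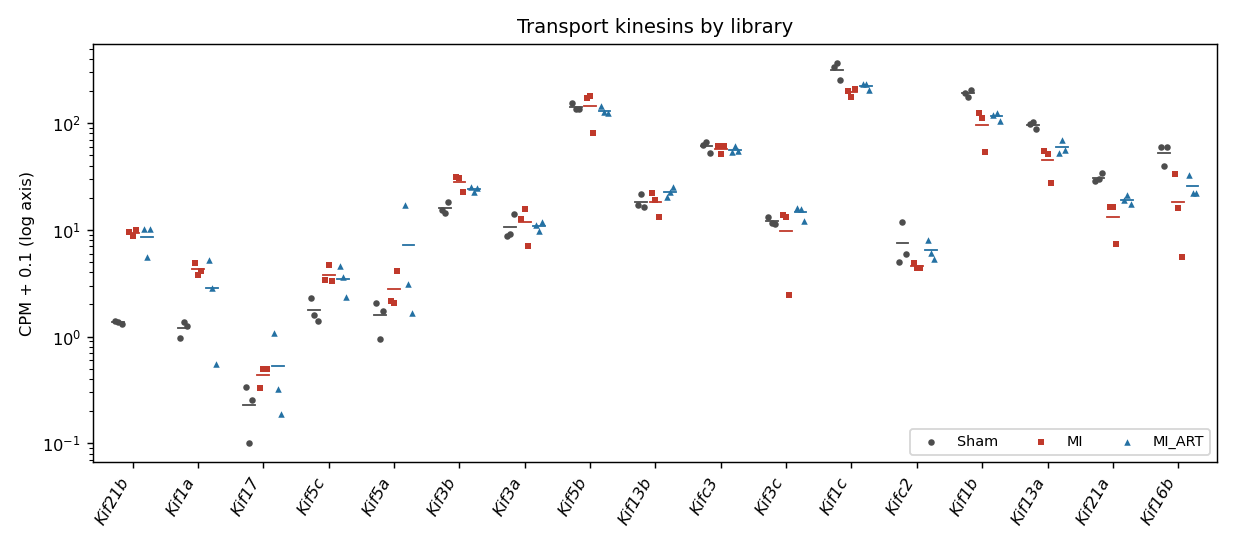
CPM + 0.1 (log axis) of the 17 transport kinesins in every library, with Sham as circles, MI as squares, MI_ART as triangles and a bar at each group mean. MI lies wholly above Sham in 5 genes and wholly below in 6, where the shares over all genes tested are 25.7% and 23.2%. Kif21b, Kif5c and Kif3b lie above Sham in every infarcted library, and MI 4 is the lowest infarcted library in 8 of the 17.

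Mitotic and transport kinesins were set against each other within each library, as the difference of their mean log2(CPM + 0.1). This difference was -4.22, -4.63 and -4.69 in Sham, -0.81, -0.17 and -0.10 in MI, and -1.12, -1.40 and -0.51 in MI_ART. The infarcted libraries lay far from Sham, and MI and MI_ART overlapped, since MI_ART 3 was above MI 2. Group means were -4.51 ± 0.26, -0.36 ± 0.39 and -1.01 ± 0.45 (SD, n = 3 each). The mitotic mean alone moved from -0.94 to -0.40 in Sham to 3.24 to 3.80 in MI, while the transport mean stayed between 3.44 and 4.37 in all 9 libraries. A difference within 1 library is almost free of the scaling, so this contrast does not rest on the choice of TMM. It adds no test, since it is made from the same genes.

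**Figure D4:**
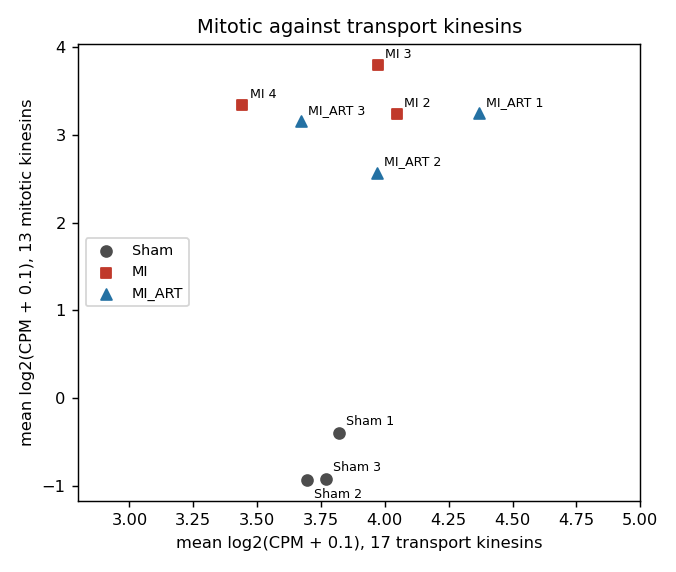
Mean log2(CPM + 0.1) of the 13 mitotic kinesins (y axis) against that of the 17 transport kinesins (x axis), 1 point per library. The Sham libraries lie at -0.94 to -0.40 on the y axis and the infarcted ones at 2.57 to 3.80, whereas all 9 share the range from 3.44 to 4.37 on the x axis.

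In the centromere, CENP-A itself did not pass the test. Cenpa was at 32.4, 31.6 and 29.6 CPM in Sham, 35.1, 41.2 and 43.2 in MI, and 28.7, 33.1 and 38.1 in MI_ART. Every MI library was above every Sham library, a pattern found in 25.7% of all genes tested. Its log2 fold change was 0.35 ± 0.16 (SE), 1.28-fold, with an edgeR adjusted p of 0.118. The deposition factors of CENP-A did rise in MI, all 4 of the 4 listed, where 18.8% of all genes tested were called higher. Hjurp, the chaperone of CENP-A, went from 31.1, 33.0 and 28.9 CPM in Sham to 73.2, 92.6 and 80.0 in MI and 73.8, 46.0 and 81.6 in MI_ART (edgeR adjusted p = 0.00113 in MI). Mis18a, which primes the centromere for it, rose by 1.13 on the log2 scale (edgeR adjusted p = 0.00510).

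The network built on CENP-A was uneven. Cenpt, Cenph, Cenpi, Cenpk, Cenpl, Cenpm, Cenpn, Cenpo, Cenps and Cenpu rose in MI, while Cenpa, Cenpc1, Cenpp, Cenpq, Cenpw and Cenpx did not pass. Cenpt, the DNA-binding subunit that links chromatin to the outer kinetochore, was at 2.67, 1.66 and 1.51 CPM in Sham, 9.96, 15.2 and 21.6 in MI, and 9.24, 8.15 and 9.37 in MI_ART. It rose 8.00-fold in MI (edgeR adjusted p = 0.000202), and the MI_ART values were all below the MI values.

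Cenph, Cenpi and Cenpm had the largest folds, each from very few Sham counts. Cenpm had 8 counts in Sham, all in Sham 3 (0.153 CPM), and was at 3.39, 5.13 and 12.4 CPM in MI and 3.87, 2.41 and 2.85 in MI_ART. The fitted rise in MI was 133-fold (edgeR adjusted p = 0.000659), and its log2 value went from 7.05 to 6.34 without MI 4. Cenph (10 counts in Sham: 0.0737, 0 and 0.115 CPM) was at 3.04, 5.34 and 5.41 CPM in MI and 3.37, 2.50 and 3.48 in MI_ART, a fitted 70.7-fold in MI (edgeR adjusted p = 0.000191). Cenpi, like Cenph a subunit of the group that recruits further CENP proteins, was at 0.221, 0 and 0.191 CPM in Sham, 4.89, 8.60 and 6.38 in MI and 5.90, 3.24 and 5.56 in MI_ART, a fitted 47.2-fold (edgeR adjusted p = 0.000456).

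Of the other called genes in this network, the rises ran from 2.01-fold (Cenpo) to 23.9-fold (Cenpk). Of the 10 calls, 9 held in all 18 alternative fits, Cenpo being the exception. Cenpc1, which encodes the protein that ties CENP-A nucleosomes to the kinetochore, stayed at 11.6, 10.1 and 12.5 CPM in Sham, 14.4, 15.5 and 7.56 in MI, and 13.6, 12.4 and 13.1 in MI_ART (log2 0.13 ± 0.26 SE, edgeR adjusted p = 0.738, and 0.39 with an adjusted p of 0.0634 without MI 4). Cenpq, a subunit of the same network, was at 8.87, 6.85 and 12.5 CPM in Sham, 8.83, 11 and 8.21 in MI and 9.65, 8.75 and 7.73 in MI_ART, and Cenpx, which also acts in DNA repair, at 15.2 to 16.9, 10.4 to 22.8 and 10.6 to 18.6. For Cenpq and Cenpx the groups overlapped, with log2 fold changes of -0.01 and 0.13. Cenpw reached an edgeR adjusted p of 0.0829 in MI, and of 0.00689 without Sham 3, where it was highest of the Sham libraries (1.19 CPM against 0.332 and 0.257). With total counts in place of TMM all 16 were called higher, Cenpq with a turned sign (0.86). In that fit 9528 of all 19326 genes tested were called higher, and the median log2 fold change of all genes was 0.88. A value such as that of Cenpq therefore lies at the shift of all genes. The 6 that missed the threshold with TMM are still not shown to be unchanged.

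**Figure D5:**
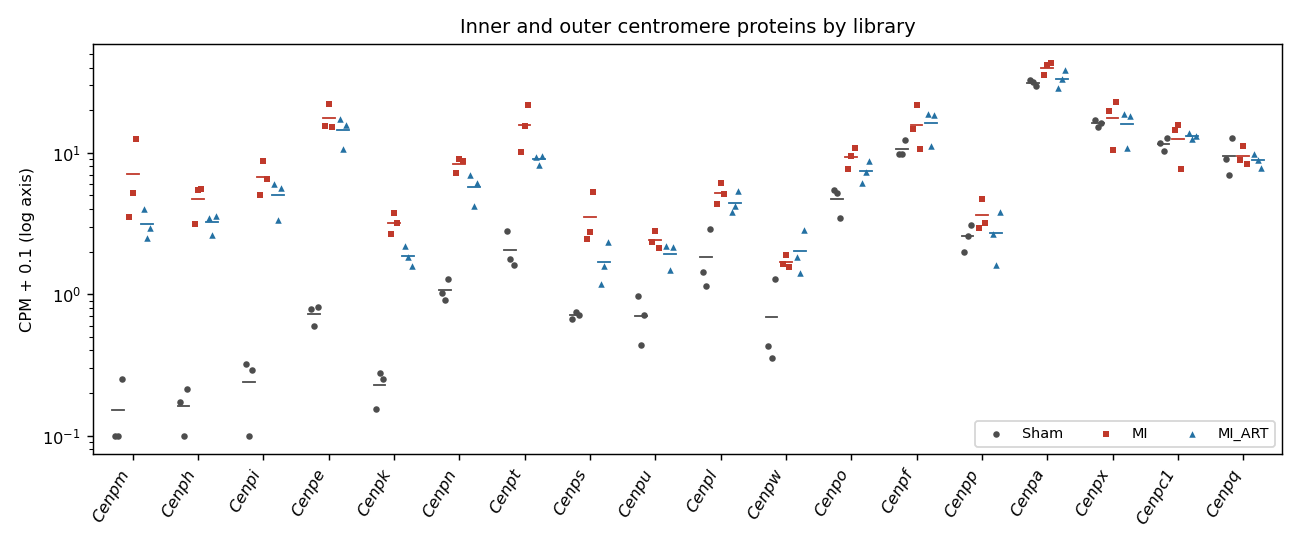
CPM + 0.1 (log axis) of the 16 inner and 2 outer centromere genes in every library, with Sham as circles, MI as squares, MI_ART as triangles and a bar at each group mean. Cenpm, Cenph and Cenpi lie near the bottom of the axis in Sham and at 2.41 CPM or above in every infarcted library, whereas Cenpa, Cenpc1, Cenpq and Cenpx lie at similar heights in all 3 groups.

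The 2 outer centromere genes differed. Cenpe, a kinesin in its own right that carries chromosomes to the spindle equator (chromosome 3, 135212563 to 135273540), was at 0.682, 0.494 and 0.709 CPM in Sham. It was at 15.5, 22.1 and 15 in MI and at 17.1, 10.6 and 15.6 in MI_ART, 27.8-fold higher in MI than in Sham (log2 4.80 ± 0.30 SE, edgeR adjusted p = 3.16e-05). Cenpf, a large coiled-coil protein of the outer kinetochore that also binds the nuclear envelope, was at 9.70, 9.64 and 12.1 CPM in Sham, 14.7, 21.7 and 10.6 in MI and 18.6, 11.1 and 18.3 in MI_ART. MI 4 and MI_ART 2 fell within the Sham range, and Cenpf did not pass (log2 0.58 ± 0.29 SE, edgeR adjusted p = 0.157). Without MI 4 it did, at a log2 fold change of 0.80 (edgeR adjusted p = 0.0451).

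Genes that work with these members were counted from lists of their partners, in MI against Sham, where 18.8% of all genes tested were called higher. The outer kinetochore genes rose in 9 of 10, with Zwint the exception (61.9 to 87.3 CPM in Sham and 77.5 to 83.0 in MI), and Pmf1 rose by 1.07 on the log2 scale (edgeR adjusted p = 0.0165). Spindle checkpoint genes rose in 6 of 6, among them Bub3 (33.7 to 43.7 CPM in Sham and 45 to 61.1 in MI, edgeR adjusted p = 0.0487) and Mad2l1 (4.23 to 5.36 and 17.5 to 23.5). The chromosomal passenger genes rose in 4 of 4: Incenp went from 1.84 to 3.54 CPM in Sham to 14.3 to 28.2 in MI, and Birc5 from 0 to 0.885 to 15.9 to 36. Central spindle genes rose in 5 of 5, with Anln and Racgap1 at log2 fold changes of 3.80 and 4.57. Among spindle assembly genes 5 of 6 rose, Tpx2 by 5.09 on the log2 scale, while Ckap5 did not pass (-0.43, edgeR adjusted p = 0.201). In MI_ART against Sham the calls were fewer in the first lists: 6 of 10 outer kinetochore and 4 of 6 spindle checkpoint genes were higher. The chromosomal passenger, central spindle and spindle assembly lists had 4 of 4, 5 of 5 and 5 of 6 higher there. The share over all genes tested was 12.9%.

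Few partners of the transport motors were called, and their shares lie near those of all genes (18.8% higher and 14.3% lower), so they show nothing about these lists. Of 9 kinesin cargo adaptor genes 1 was called higher (Mapk8ip1, edgeR adjusted p = 0.0390) and 2 lower. Trak1, which hangs mitochondria on kinesin-1, fell from 172, 195 and 110 CPM in Sham to 87.6, 79.8 and 48.3 in MI (edgeR adjusted p = 0.0107), and Kifap3, the adaptor of kinesin-2, fell by 0.51 on the log2 scale (edgeR adjusted p = 0.0318). Trak2 was at 214 to 229 CPM in Sham and 68.2 to 160 in MI. Of 12 genes of cytoplasmic dynein and dynactin, the motor that walks the other way, Dynll1 was called higher and Dynll2 lower (log2 1.79 and -1.33), and the heavy chain Dync1h1 had a log2 fold change of 0.08.

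Of the 11 other Kif-named genes tested, Kif26b and Kif24 were called higher, and Kif1bp and Kif6 lower, shares close to the 18.8% and 14.3% of all genes. Kif26b, a kinesin relative that works in cell adhesion and signalling more than in transport, was at 3.76, 3.40 and 3.26 CPM in Sham, 9.41, 16.6 and 16.0 in MI and 12.4, 8.96 and 14.6 in MI_ART. It rose 4.03-fold in MI (edgeR adjusted p = 0.000554), and this call held in all 18 alternative fits. Kif1bp encodes a kinesin-binding protein, not a motor. It was at 29.6, 30.0 and 26.5 CPM in Sham, 22, 19.5 and 19.4 in MI and 22.6, 21.7 and 24.5 in MI_ART, 1.41-fold lower in MI (edgeR adjusted p = 0.0248). That call was lost without Sham 1 (0.0863), Sham 2 (0.0791), MI 3 (0.0673) or MI_ART 2 (0.0571), and with total counts its sign turned (0.34).

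Kif6 was at 4.31, 4.70 and 5.15 CPM in Sham, 2.32, 1.60 and 2.31 in MI and 2.76, 3.34 and 1.86 in MI_ART, 2.27-fold lower in MI (edgeR adjusted p = 0.0109). Kif2a, the depolymerase relative of Kif2c that also acts outside mitosis, was at 11.7, 18.1 and 18.1 CPM in Sham, 17.6, 20.9 and 15.9 in MI and 19.9, 16.5 and 18.4 in MI_ART, and did not pass (log2 0.19 ± 0.21 SE, edgeR adjusted p = 0.531). Kif24 was at 0.230 to 0.369 CPM in Sham and 0.722 to 1.23 in MI (edgeR adjusted p = 0.0182), a call lost without Sham 2 (0.0604), Sham 3 (0.0645) or MI 3 (0.0519). Kif19a, a motor of cilia, was at 0.977 CPM in Sham 1 and 0 in Sham 2 and Sham 3. Without Sham 1 it was called higher in MI (edgeR adjusted p = 0.00231), and in Sham 1 the ciliated cell markers Foxj1, Tekt1 and Dnah5 were at 1.22, 0.369 and 1.29 CPM, against at most 0.250 in any other library. Their part in the Kif19a value was not tested.

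Of the 3 other Cenp-named genes, Cenpb, which encodes a protein that binds satellite DNA, was at 145, 139 and 100 CPM in Sham, 124, 121 and 284 in MI and 130, 126 and 123 in MI_ART. Only MI 4 stood out, and the log2 fold change in MI was 0.46 ± 0.32 (SE), or -0.07 without MI 4. Cenpv, a protein found on mitotic chromosomes and microtubules, was at 8.74, 10.3 and 9.15 CPM in Sham, 5.47, 4.26 and 6.57 in MI and 4.91, 5.16 and 5.76 in MI_ART, 1.73-fold lower in MI (edgeR adjusted p = 0.0168). The Cenpv call was lost without Sham 2 (0.0607) or MI 3 (0.0541), and with total counts its sign turned (0.053). Cenpj, a centriole protein despite its name, was at 5.95, 4.19 and 4.54 CPM in Sham, 6.64, 5.74 and 4.76 in MI and 4.97, 5.48 and 6.30 in MI_ART, and did not pass (edgeR adjusted p = 0.489).

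Untested members were Kif12, Kif2b and the pseudogenes Kif4-ps, Kif22-ps and Kifc5c-ps, each with 0 counts in every library, and Kif16bos, a transcript on the strand opposite Kif16b with 3 counts in MI 2 and 0 elsewhere. In RefSeq, 18 of the 68 members share their span with another protein-coding gene, so some of their counts are uncertain. Those with calls include Kif18a (Mettl15), Cenpo (Adcy3), Cenpn (Cmc2), Cenpt (Tsnaxip1), Cenpu (Primpol) and Cenpk (Ppwd1). Cenpp, which did not pass, spans the matrix genes Aspn, Ecm2, Ogn and Omd.

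Artesunate was compared with vehicle within infarcted hearts, where no member passed the test. In MI_ART against MI, edgeR called 0 of 62 members, and over all genes 0 higher and 2 lower (0.0103%). At an unadjusted p under 0.05 there were 3 members, Kif22, Cenps and Cenpt, out of 62, against 1346 of 19326 genes (6.96%), and DESeq2 called 0 members, with 45 genes higher and 40 lower. All 13 mitotic kinesins had a negative log2 fold change, from -0.76 (Kif22, SE 0.30) to -0.27 (Kif14, SE 0.30), with a median of -0.45, and the 4 proliferation markers also pointed lower. Without MI 3 the median was -0.25, and without MI_ART 2 it was -0.31. The inner centromere genes had a median of -0.39, 14 of 16 of them negative, and -0.23 without MI_ART 2. The transport kinesins had a median of 0.27, with 10 of 17 positive, but it was 0.06 without MI 4 and 0.00 without MI_ART 1, so a direction for them rests on single libraries. Over all genes the median was 0.00. These genes share libraries, so equal signs do not count as separate evidence.

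Non-overlap between MI_ART and MI was found for 8 members. All MI_ART libraries were below all MI libraries for Cenpk, Cenpn, Cenps, Cenpt, Kif7 and Kifc5b, and above them for Kif21a and Kifc2. Over all genes tested, 6.52% were wholly below and 7.38% wholly above. Cenps, a subunit shared with a DNA repair complex, was at 2.37, 2.64 and 5.15 CPM in MI and 1.07, 1.49 and 2.22 in MI_ART, with a log2 fold change of -1.09 ± 0.39 (SE, edgeR adjusted p = 0.709). Over the 18 alternative fits that log2 fold change ran from -1.40 to -0.54. The largest estimate of a gain was that of Kif5a (1.42 ± 0.76 SE), which rests on MI_ART 1.

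Artesunate-treated infarcted hearts were also compared with Sham, and this comparison shares the Sham libraries with that of MI. All 13 mitotic kinesins were called higher (median log2 4.02) where 12.9% of all genes tested were called higher and 7.41% lower, 20.3% in either direction. Of the 62 members, 27 were called higher and 1 lower, 39 had an unadjusted p under 0.05 (33.3% of all genes), and MI_ART lay wholly above Sham in 31 and wholly below in 8 (25.4% and 22.8% of all genes). In the inner centromere network 9 of 16 were higher, 6 of them in all 18 alternative fits, and Cenpe was 22.9-fold higher (edgeR adjusted p = 5.90e-05). Of the 13 mitotic calls 10 held in all 18 alternative fits. The others were Kif18a, whose rise of 2.03-fold (edgeR adjusted p = 0.0372) reached 0.123 without Sham 1 and was also lost without Sham 2, MI 2, MI_ART 1 or MI_ART 3 (0.118, 0.0529, 0.114 and 0.119), and the near-identical pair. Kifc1 was lost without Sham 2, MI_ART 1 or MI_ART 3 (0.0784, 0.0639 and 0.0514), and Kifc5b without MI_ART 1 (0.0582). Of the inner centromere calls, Cenps was lost without MI 3, MI_ART 2, MI_ART 3 or any 1 of the Sham libraries (0.0514 to 0.145). Cenpl was lost without Sham 1, Sham 2 or any 1 of the MI_ART libraries (0.0530 to 0.105), and Cenpu without Sham 2, Sham 3, MI_ART 1 or MI_ART 3 (0.0519 to 0.0684).

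Among transport kinesins Kif21b (6.71-fold) and Kif3b (1.5-fold) were called higher in MI_ART against Sham and none lower, and Cenpv was the only member called lower (1.78-fold, edgeR adjusted p = 0.0209). The Cenpv call was lost without Sham 2, Sham 3 or any 1 of the MI_ART libraries (0.0546 to 0.0943), and with total counts its log2 value was -0.10 (0.762). Kif3b had an edgeR adjusted p of 0.0438, kept in 1 of the 9 fits without 1 library, the one without MI 4, and ranging up to 0.147 (without MI_ART 1). The count of lower transport kinesins depended on MI 4, which shares the estimate of spread although it is not in this comparison. Without MI 4, 5 were called lower in MI_ART (Kif1b, Kif1c, Kif13a, Kif16b and Kif21a). Their log2 fold changes against Sham were -0.71, -0.51, -0.70, -1.04 and -0.68 in MI_ART, and -0.99, -0.71, -1.11, -1.53 and -1.21 in MI. With total counts the MI_ART values of Kif1b, Kif1c, Kif13a and Kif21a turned sign (0.03, 0.21, 0.03 and 0.06), so their direction in MI_ART depends on the scaling. The differences between these paired values are the MI_ART against MI contrasts, none of which passed the test. MI 4 had the lowest MI value of Kif1b, Kif13a and Kif16b. Over the 18 alternative fits the contrast ran from -0.02 to 0.50 for Kif1b and from -0.08 to 1.26 for Kif16b. For Kif1c, Kif13a and Kif21a it stayed positive, with lowest values of 0.08, 0.15 and 0.24. Kif1a reached an edgeR adjusted p of 0.0117 against Sham without MI_ART 3.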

How the data were processed

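Bulk RNA sequencing libraries of 9 samples were compared as 3 groups of 3. The authors deposited raw counts per gene, with no normalization, made with HISAT (version not given), featureCounts 1.5.0-p3 and GRCm38, per the submitters' processing notes, which also name DESeq 1.8.3. Neither the strand setting nor the multimapping rule is given in the sources used here. All 9 libraries entered 1 edgeR 4.0.16 fit (TMM factors, filterByExpr, quasi-likelihood test, Benjamini-Hochberg adjustment over 19326 genes, threshold 0.05) in R 4.3.3, checked on simulated counts. The common dispersion was 0.150. DESeq2 1.42.0 and 17 other settings were the alternatives. RefSeq GRCm38.p6 matched 68 of 68 symbols. Means over a list used log2(CPM + 0.1). The members and lists were chosen with earlier results of these data known. Values in every library are given for the 5 members of each main list with the highest mean CPM, the 3 with the largest fold, both outer centromere genes, the 3 highest of the others, members called against their list's median, and members near the threshold; Kif19a, Kif3c, Kif5a and Cenps were named after their values were seen. Sequences are not used here.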

Additional observations from a re-analysis of the deposited data

How the results depend on the processing

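With total counts in place of TMM, MI against Sham had 9528 genes higher and 644 lower (members 46 and 0, transport kinesins 8 and 0), and MI_ART against Sham 8032 and 124 (members 42 and 0, transport kinesins 8 higher). Signs then turned for 10 members in MI and 12 in MI_ART against Sham. Those with a call in either fit were Kif1c (0.12), Kif13b (0.81), Kifc3 (0.76), Cenpq (0.86), Kif1bp (0.34) and Cenpv (0.053) in MI, and Kifc3 (0.62) and Cenpq (0.65) in MI_ART. The median of all genes moved by construction, and the cause was not tested.

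In MI against Sham, the fit of the 2 groups alone called 3 members and 2 transport kinesins lower. Leaving out 1 library gave 4 to 8 members lower, 2 to 4 transport kinesins higher and 3 to 5 lower. In MI_ART against MI, DESeq2 called 45 genes higher and 40 lower, and the fit of these groups alone 0 lower. Total counts, upper quartile factors, no filter, and the fit without MI 4 and MI_ART 3 together each called 1 gene lower. Leaving out 1 library gave 0 to 1 gene higher and 0 to 3 lower.

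In MI_ART against Sham, 952 genes were lower with no filter and 2538 in the fit of the 2 groups alone. Leaving out 1 library gave 1596 to 3434 higher and 455 to 2896 lower. Members called lower numbered 2 with DESeq2, 6 with the 2 groups alone, 4 without MI 4 and MI_ART 3 together, and 0 to 7 without 1 library. Transport kinesins called higher were 1 with no filter, 4 with DESeq2, 5 without MI 4 and MI_ART 3 together, and 1 to 4 without 1 library. Those called lower were 4 with the 2 groups alone, 3 without MI 4 and MI_ART 3 together, and 0 to 5 without 1 library.

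Correlations of the libraries' deviations from their group means ran from -0.0354 to 0.0932 for pairs with the same replicate number. Pairs with different numbers ran from -0.121 to 0.108. So few pairs cannot show whether a number marks a shared animal or batch. With the number as a replicate block, MI against Sham had 30 members higher and 7 lower (Kif5b and Cenpf gained a call, at 0.0403 and 0.0209). In that fit MI_ART against MI had 1 gene lower, and MI_ART against Sham 2676 genes, 7 members and 5 transport kinesins lower. No other library shares the number of MI 4, so its block term takes up that library and the fit in effect leaves MI 4 out. Without MI 4 and with no block, the edgeR adjusted p in MI against Sham was 0.0777 for Kif5b and 0.0451 for Cenpf. The part of the pairing in these calls was therefore not tested. Among named members, 39 of 612 alternative fits lost and 11 gained a call in MI against Sham, 0 and 0 in MI_ART against MI, and 15 and 33 in MI_ART against Sham. Depth limits genes with few Sham counts such as Kif2c and Cenpm.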
